A study of Mus musculus with 10 samples.

Results

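The DNA repair and checkpoint genes described here are 46 of the 22878 gene symbols listed in each library, and they were taken by name. They comprise 8 genes of the Fanconi anaemia core complex, the 2 genes of the FANCD2-FANCI pair, 9 genes of homologous recombination, the 3 genes of the MRN complex, 5 genes of end joining, 4 genes of base excision and single-strand break repair, 7 genes of nucleotide excision repair, 4 genes of mismatch repair and 4 checkpoint kinases. All 46 were found in the files. For the 10 members listed with more than 1 transcript, the transcript with the highest mean reads was used.

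The study measured polyA RNA by RNA-Seq in R1 cells, a mouse embryonic stem (ES) cell line, and in embryoid bodies (EBs), the aggregates these cells form when they differentiate in suspension. The cells carried a lentiviral short hairpin RNA against Smyd5, a gene for a histone H4K20 methyltransferase (shSmyd5), or against luciferase, which mouse cells lack (shLuc, the control). Each hairpin was sampled at 5 stages: ES cells kept in LIF medium on gelatin with the GSK3 inhibitor CHIR9901 to remove feeder cells, and EBs grown in low-attachment dishes without LIF for 24 h or for 6, 10 or 14 days. There was 1 library for each hairpin and stage, 10 in all. Every library, the controls included, therefore came from transduced cells, the knockdown left some Smyd5 RNA, and no stage has a replicate. The labels do not say whether the libraries of a series came from separate cultures.

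Cells mend DNA by routes that differ in the damage they read. Mismatch repair corrects copying errors, base excision repair removes damaged single bases, nucleotide excision repair cuts out bulky lesions, and end joining and homologous recombination rejoin broken chromosomes, the first by direct ligation and the second by copying a sister chromatid. The Fanconi anaemia proteins unhook crosslinked strands, the MRN complex senses broken ends, and the ATM, ATR, CHEK1 and CHEK2 kinases hold the cell cycle while repair goes on. ES cells divide fast, spend little time in G1 and are known for high levels of many repair proteins.

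Reads in genes ranged from 3895537 in shLuc ES cells, the shallowest library, to 43377815 in shLuc day 6 EBs. Smyd5 stood at 29.7 RPKM (reads scaled to the length of the transcript and the depth of the library) in shLuc and 4.51 in shSmyd5 ES cells, and its log2 fold between the hairpins, from ES cells to the last stage, was -2.69, -3.44, -4.71, -1.44 and -0.92. The 6 ES cell markers summed to between 1879 and 2867 RPKM in the 4 libraries of ES cells and 24 h EBs and to between 51.3 and 752 RPKM in the 6 later libraries. Markers of fibroblasts, the feeder cell type, summed to at most 4.49 RPKM in the 4 early libraries, with Col3a1 at 0.131 RPKM or less, while they reached 3417 RPKM at day 14. In such bulk libraries, fewer cells of a type and less RNA per cell cannot be told apart.

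All 46 members were expressed. Their summed level was 905 RPKM in shLuc and 865 in shSmyd5 ES cells, 648 and 669 RPKM at 24 h, 613 and 391 RPKM at day 6, 488 and 432 RPKM at day 10, and 370 and 358 RPKM at day 14. Thus the 3 later stages summed lower than the 2 earlier ones under each hairpin. Msh6 alone gave 136 RPKM of the shLuc sum at 24 h and 76.7 RPKM at day 6, while the median member of shLuc EBs stood at 8.12 RPKM at 24 h and 8.26 RPKM at day 6. The level differed widely between members: the mean over the 10 libraries was highest for Msh6 at 84.0 RPKM and Parp1 at 68.8 RPKM, with Xrcc5 next at 35.0 RPKM, and lowest for Prkdc at 1.58 RPKM. For 18 of the 46 the mean was at least 10 RPKM, and the median member at 7.13 RPKM lay near the median of 8.83 RPKM over the 12277 genes with a mean of at least 1 RPKM.

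**Figure D1:**
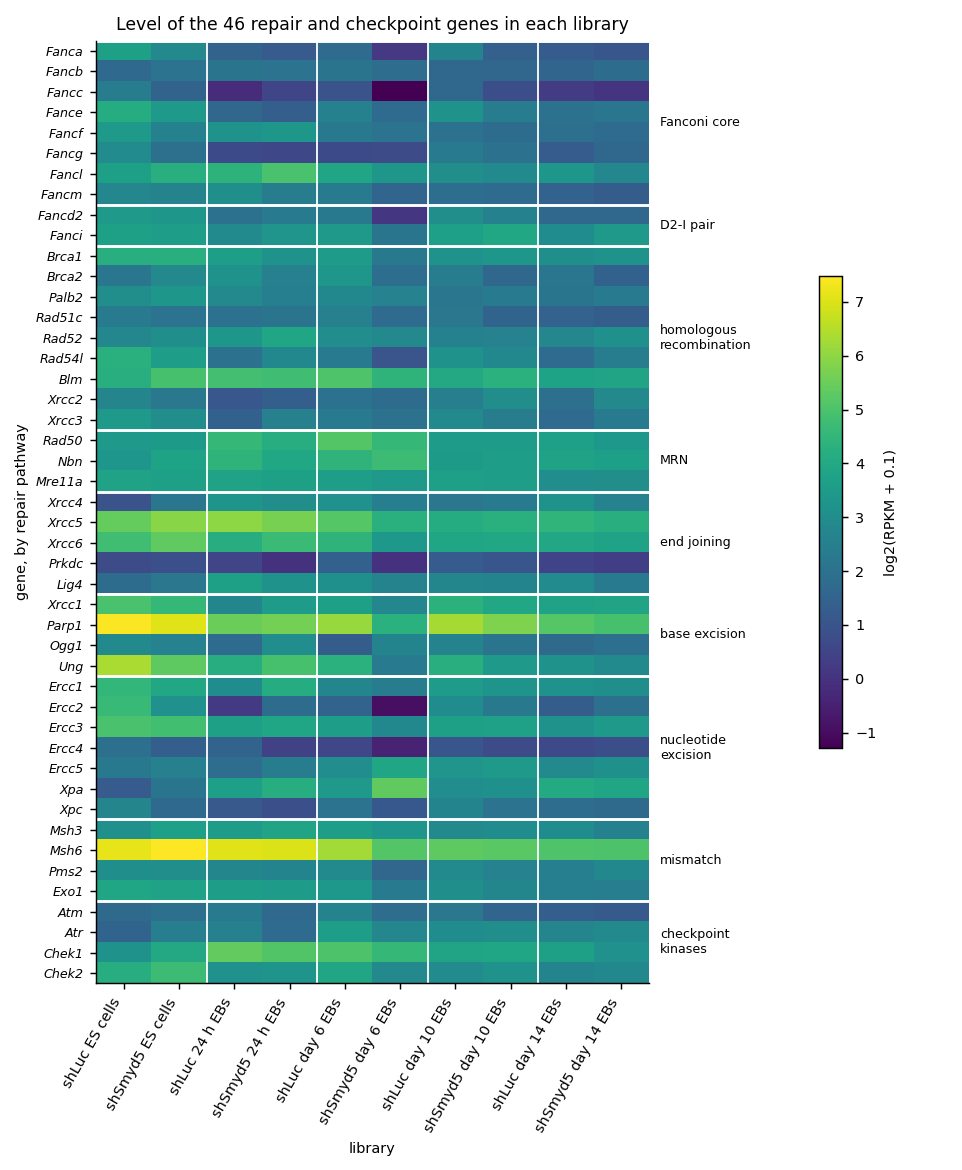
Level of each of the 46 genes (rows, grouped by repair pathway) in each of the 10 libraries (columns, ordered by stage, with shLuc to the left of shSmyd5), as log2(RPKM + 0.1), yellow being high. Msh6 and Parp1 are the brightest rows, at up to 178 and 173 RPKM in ES cells, and many rows darken from the left (early stages) to the right (late stages).

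To ask which members changed with differentiation, the mean of day 6, day 10 and day 14 EBs was compared with the mean of ES cells and 24 h EBs in 1 fit over the 10 libraries, with the knockdown as a term. Of the 46 members, 25 fell in the later stages (54.3%), 1 rose (2.17%) and 20 did not pass the test. Of all 12277 genes tested, 25.1% fell and 28.8% rose. The median log2 change of the members was -0.72, and that of all genes was 0.05. The test was edgeR's quasi-likelihood test with Benjamini-Hochberg adjustment over all genes and a threshold of 0.05. In it the 2 hairpins of a stage stand for its replicates. The spread is thus that left between the hairpins within each stage, beyond the shared knockdown effect, in these 10 libraries only. Differences among the late stages or among the early stages are not part of it. When log2(RPKM + 0.1) was tested with limma instead, the median of all genes moved to 0.30 and that of the members to -0.47, 15 members fell and 3 rose, and 68.3% of all calls were rises against 53.4% by edgeR.

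**Figure D2:**
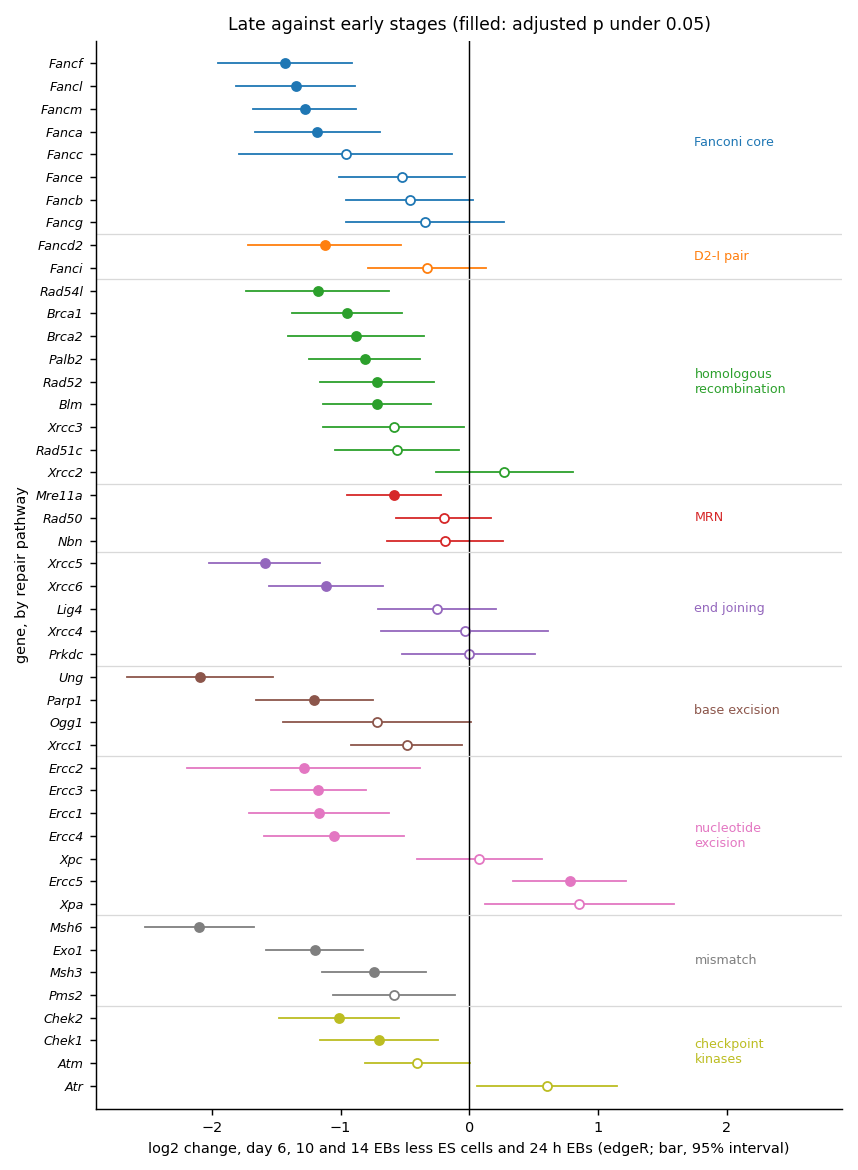
Log2 change of each of the 46 genes between the late stages (day 6, 10 and 14 EBs) and the early stages (ES cells and 24 h EBs), with a normal 95% interval from its standard error, by pathway and colour. These intervals are narrower than the edgeR test allows, so some leave out 0 where the unadjusted p is above 0.05. Filled points passed an adjusted p of 0.05: 25 lie to the left of 0 and 1, Ercc5, to the right, and the widest interval among the filled points is that of Ercc2.

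Mismatch repair held the member with the lowest adjusted p. Msh6 (mm9 chr17:88374390-88390223), a subunit that binds mispaired bases, was at 143 RPKM in shLuc and 178 in shSmyd5 ES cells, 136 and 129 at 24 h, 76.7 and 34.8 at day 6, 39.0 and 37.6 at day 10, and 33.2 and 32.8 at day 14. All 6 late libraries lay below all 4 early ones, and the log2 change was -2.10 (SE 0.22, edgeR adjusted p = 2.73e-05), 4.28-fold lower. Exo1 (mm9 chr1:177810909-177841527), the exonuclease that removes the mispaired strand, went from 11.7 to 14.4 RPKM in the early libraries to 4.82 to 10.4 RPKM in the late ones, again without overlap, at a log2 change of -1.20 (SE 0.19, edgeR adjusted p = 0.000441). Msh3, which serves the repair of larger loops, fell by 0.74 on the log2 scale (edgeR adjusted p = 0.0116), although its late libraries at 5.84 to 12.1 RPKM overlapped the early ones at 8.54 to 14.2 RPKM, and its call was lost without the 24 h pair (-0.38, edgeR adjusted p = 0.245), the day 10 pair or the day 14 pair. Pms2, which nicks the strand to be repaired, lay between 2.93 and 8.42 RPKM and did not pass the test.

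In base excision repair, 2 of 4 members fell. Ung (mm9 chr5:114580395-114589332), the glycosylase that removes uracil from DNA, stood at 82.9 and 39.7 RPKM in shLuc and shSmyd5 ES cells, 17.9 and 30.4 at 24 h, 19.9 and 4.86 at day 6, 18.3 and 10.8 at day 10, and 9.20 and 7.32 at day 14. Its largest drop in the control lay between ES cells and 24 h EBs, and shLuc EBs at 24 h, day 6 and day 10 kept to 17.9 to 19.9 RPKM. The transcript is of 57.2% GC, and the part of base composition in that drop was not tested. The log2 change was -2.09 (SE 0.29, edgeR adjusted p = 0.00018). Parp1 (mm9 chr1:182499086-182531384), the sensor of single-strand breaks, stood at 173 and 132 RPKM in ES cells, 45.5 and 49.8 at 24 h, 69.5 and 19.8 at day 6, 78.3 and 55.0 at day 10, and 35.4 and 30.6 at day 14. Its log2 change of -1.20 (SE 0.23, edgeR adjusted p = 0.00139) rested on the ES cell pair, since without that stage it was -0.59 (edgeR adjusted p = 0.116). Xrcc1, the scaffold that PARP1 recruits, at 6.64 to 31.3 RPKM, and Ogg1, the glycosylase for oxidised guanine, at 2.39 to 8.04 RPKM, did not pass the test.

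In end joining, the genes of the 2 end-binding subunits fell and the other 3 did not pass the test. Xrcc5 (mm9 chr1:72353995-72441526), which encodes the Ku80 subunit that caps broken ends, was at 41.8 and 60.4 RPKM in ES cells, 63.8 and 51.2 at 24 h, 35.8 and 19.2 at day 6, 17.5 and 19.5 at day 10, and 21.8 and 19.0 at day 14, so that the late and early libraries did not overlap. It fell by 1.59 on the log2 scale (SE 0.22, edgeR adjusted p = 0.000178), and Xrcc6 (mm9 chr15:81818265-81870515), which encodes its partner Ku70, fell by 1.11 (SE 0.23, edgeR adjusted p = 0.00194). Xrcc6 ran from 18.1 to 40.1 RPKM in the early libraries and from 10.3 to 21.3 RPKM in the late ones. Those 3 were Prkdc, the catalytic kinase that Ku recruits, at 0.888 to 2.63 RPKM over the 10 libraries, Lig4, the ligase, at 3.38 to 13.0 RPKM, and Xrcc4, its cofactor, at 1.85 to 9.53 RPKM.

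Of the 8 Fanconi core genes, 4 fell and the other 4 did not pass the test. Fancm (mm9 chr12:66176593-66233045), the helicase that brings the core complex to stalled forks, lay at 5.18 to 8.38 RPKM in the early and 2.39 to 5.07 RPKM in the late libraries, and its log2 change was -1.28 (SE 0.20, edgeR adjusted p = 0.000448). Fancf (mm9 chr7:59115947-59117637), an adaptor of the complex, went from 5.82 to 10.6 RPKM to 3.31 to 4.66 RPKM, a log2 change of -1.43 (SE 0.27, edgeR adjusted p = 0.00112). Neither gene had overlapping late and early libraries. Fancl (mm9 chr11:26286135-26371876), the ubiquitin ligase subunit and the most abundant of the 8, peaked at 31.4 RPKM in shSmyd5 24 h EBs and was lowest at 6.68 RPKM in shSmyd5 day 14 EBs, with a log2 change of -1.35 (SE 0.24, edgeR adjusted p = 0.000801). Fanca fell by 1.18 on the log2 scale (edgeR adjusted p = 0.00236) but stood at 12.9 and 7.11 RPKM in ES cells and at 2.72 and 2.27 RPKM at 24 h already, and without the ES cell pair its change was -0.43 (edgeR adjusted p = 0.315). The least abundant of the group was Fancc, at 0.312 to 5.20 RPKM.

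Of the 2 proteins that the core complex tags with ubiquitin, the gene of 1 fell. Fancd2 fell by 1.12 on the log2 scale (SE 0.30, edgeR adjusted p = 0.00981), from 3.83 to 11.0 RPKM early to 0.971 to 8.14 RPKM late, and not when the ES cell pair was left out (-0.71, edgeR adjusted p = 0.161). Its partner Fanci, at 7.32 to 13.0 RPKM early and 4.27 to 15.4 RPKM late, did not pass the test, and the difference between the 2 genes was not tested.

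Among the 9 homologous recombination genes, 6 fell and none rose. Rad54l, a motor protein that helps strands to pair, fell by 1.18 on the log2 scale, Brca1 by 0.95, Brca2, which acts at resected ends, by 0.88, Palb2, which links BRCA1 to BRCA2, by 0.81, and Rad52 and Blm, the helicase of Bloom syndrome, by 0.72 each (edgeR adjusted p from 0.00401 to 0.0201). Blm was the most abundant of the group, at 18.2 to 30.0 RPKM in the early and 13.8 to 33.5 RPKM in the late libraries, the highest of them being shLuc day 6 EBs. Brca1 stood at 18.8 and 18.5 RPKM in ES cells, 12.0 and 8.93 at 24 h, 11.3 and 4.67 at day 6, 9.28 and 10.0 at day 10, and 8.28 and 9.10 at day 14. For each of these 6 genes the late and early libraries overlapped. With a stage left out, the calls of Brca2, Blm and Rad52 were lost without the 24 h pair (-0.52, -0.37 and -0.15) and without the day 10 pair. Those of Brca2 and Blm were lost also without the day 14 pair, that of Palb2 without the day 10 pair (-0.68) and that of Rad54l without the ES cell pair (-0.61). Over all 13 alternatives that held both hairpins, other tools included, Rad52 was called in 7, Brca2 and Blm in 8 each, Palb2 in 10, Rad54l in 12 and Brca1 in 13. Rad51c, the least abundant at a mean of 3.82 RPKM, and Xrcc2 and Xrcc3 did not pass the test. In the MRN complex, Mre11a, the nuclease, fell by 0.59 (SE 0.19, edgeR adjusted p = 0.0212), from 12.7 to 13.5 RPKM early to 7.87 to 12.6 RPKM late without overlap, though the call was lost without the 24 h pair (-0.37), the day 10 pair or the day 14 pair. Its partners Rad50, at 10.4 to 34.9 RPKM, and Nbn, at 9.85 to 26.6 RPKM, reached their highest levels at day 6 and did not pass the test.

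Nucleotide excision repair held calls in both directions. Ercc3 (which encodes the XPB helicase of TFIIH) went from 12.8 to 30.8 RPKM early to 6.84 to 13.1 RPKM late, a log2 change of -1.17 (SE 0.19, edgeR adjusted p = 0.000482). Ercc1 and Ercc4, whose products form the nuclease that cuts on the 5′ side of a lesion, fell by 1.17 and 1.05. The call of Ercc1 was lost with the GC and length trend removed (-0.43, limma adjusted p = 0.114) and that of Ercc4 without the ES cell pair (-0.93, edgeR adjusted p = 0.0568). Ercc2, the XPD helicase gene, fell by 1.29 (SE 0.46, edgeR adjusted p = 0.0363) but ranged from 1.06 to 24.3 RPKM within the early libraries alone, and without the ES cell pair its change was -0.06 (edgeR adjusted p = 0.947) and without day 6 -0.82 (edgeR adjusted p = 0.124). Ercc5 (mm9 chr1:44204589-44238105), the nuclease gene for the cut on the 3′ side, was the only member to rise: it stood at 4.73 and 5.72 RPKM in ES cells, 3.48 and 5.28 at 24 h, 8.06 and 14.5 at day 6, 9.60 and 10.8 at day 10, and 7.18 and 8.55 at day 14. All 6 late libraries were above all 4 early ones, at a log2 change of 0.78 (SE 0.22, edgeR adjusted p = 0.013), which was 0.71 without the ES cell pair (edgeR adjusted p = 0.0654) and 0.55 without day 6 (edgeR adjusted p = 0.0505). Xpa, the protein that checks the lesion, had a change of 0.86 that did not pass the test (edgeR adjusted p = 0.0742) and that was -0.48 without the ES cell pair, and Xpc, the first sensor, lay between 1.69 and 6.41 RPKM.

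**Figure D3:**
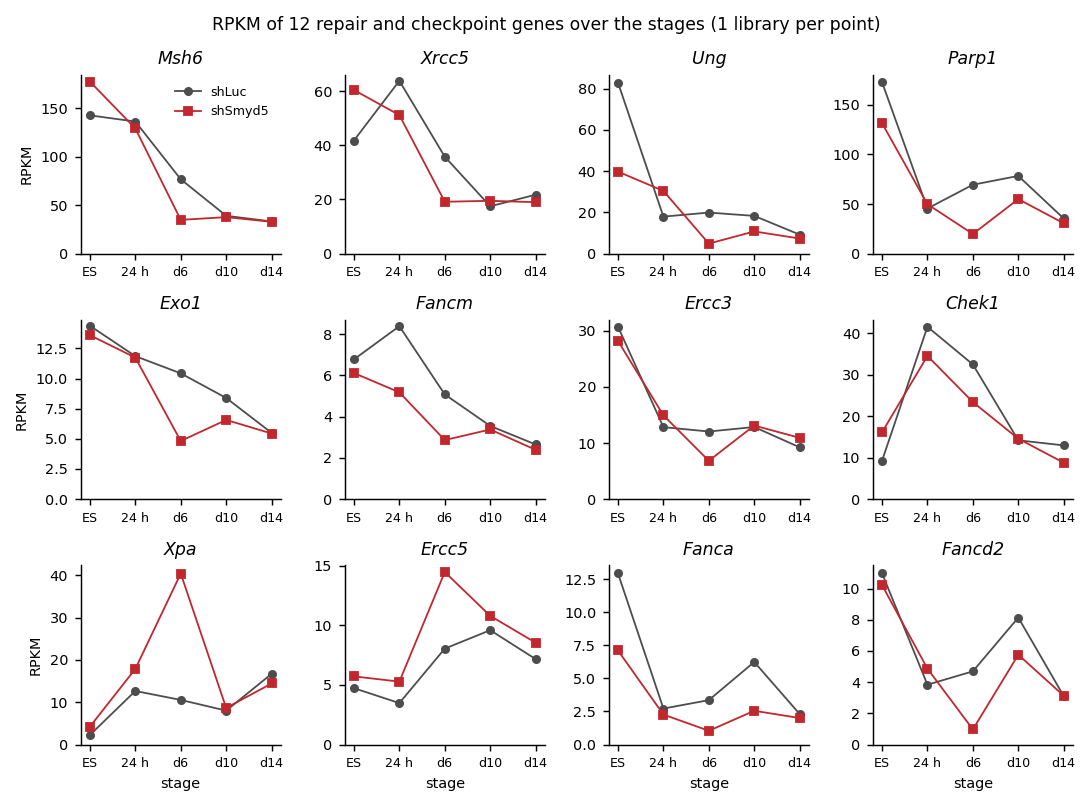
RPKM of 12 members at each stage (ES cells, 24 h, and days 6, 10 and 14 of EBs), shLuc in grey circles and shSmyd5 in red squares, 1 library per point, each panel from 0. Msh6 and Xrcc5 step down after 24 h, Ung, Parp1, Ercc3, Fanca and Fancd2 are highest in ES cells, and Xpa has its highest point, 40.4 RPKM, in shSmyd5 day 6 EBs.

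Of the checkpoint kinases, Chek2 and Chek1 fell, by 1.01 (SE 0.24, edgeR adjusted p = 0.0047) and 0.70 (SE 0.23, edgeR adjusted p = 0.0268). Chek2, the kinase downstream of ATM, stood at 18.1 and 26.5 RPKM in ES cells and at 6.28 to 14.7 RPKM in the late libraries, and its change was -0.57 without the ES cell pair (edgeR adjusted p = 0.128). Chek1, the kinase downstream of ATR, had its highest levels at 24 h, 41.5 and 34.5 RPKM, and its lowest at 8.76 RPKM in shSmyd5 day 14 EBs and 9.23 RPKM in shLuc ES cells. Without the 24 h pair its direction turned, to 0.32 (edgeR adjusted p = 0.388), and the call was also lost without day 10 or day 14. Atm, the least abundant kinase, at 2.20 to 6.16 RPKM, and Atr did not pass the test, although the late libraries of Atr at 6.45 to 12.1 RPKM all lay above the early ones at 2.80 to 5.73 RPKM.

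Over all members, the late libraries lay wholly below the early ones for 6 genes (13.0%; Fancf, Fancm, Mre11a, Xrcc5, Msh6 and Exo1), against 5.36% of the 12277 genes, and wholly above them for 2 (4.35%; Ercc5 and Atr), against 16.0%. Within shLuc libraries alone the median member changed by -0.71 and within shSmyd5 libraries alone by -0.78, at 2 early and 3 late libraries each, where edgeR called 0 and 5 members, beside 0 and 1194 of all 12277 genes (9.73% in shSmyd5). Of the 10 markers of dividing cells, 5 fell and none rose, with a median of -0.50, and their summed level ran from 492 to 670 RPKM in the early and 422 to 682 RPKM in the late libraries. All 6 ES cell markers fell and all 8 visceral endoderm markers rose over the same contrast. The part of these shifts in the members' changes was not tested.

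The promoters of 3 members that fell are shown, as a description of their start regions. They are among the members that fell whose window holds an E2F site word. Sequences came from the RefSeq promoter table (GRCm38.p6, a later build than that of the files), which holds 41 windows of 38 members, each from 250 bases before to 50 bases after a start. In the 3 windows below, capitals mark an E2F site word, searched as TTTCCCGC and TTTGGCGC on both strands. These are Msh6 at chr17:87974800-87975099, Xrcc6 at chr15:82016119-82016418 and Chek2 at chr5:110839733-110840032, all on the + strand.
Msh6: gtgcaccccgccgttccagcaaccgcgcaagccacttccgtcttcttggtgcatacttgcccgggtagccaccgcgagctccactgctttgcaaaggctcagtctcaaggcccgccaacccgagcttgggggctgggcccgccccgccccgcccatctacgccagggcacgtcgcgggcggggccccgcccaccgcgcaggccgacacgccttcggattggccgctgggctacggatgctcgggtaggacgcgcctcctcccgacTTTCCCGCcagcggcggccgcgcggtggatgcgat
Xrcc6: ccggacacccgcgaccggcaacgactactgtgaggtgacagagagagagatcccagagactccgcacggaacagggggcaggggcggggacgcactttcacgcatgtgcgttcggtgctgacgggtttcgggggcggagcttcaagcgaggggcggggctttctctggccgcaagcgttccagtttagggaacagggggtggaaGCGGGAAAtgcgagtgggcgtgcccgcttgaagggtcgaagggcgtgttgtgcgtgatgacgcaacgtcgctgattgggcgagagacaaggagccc
Chek2: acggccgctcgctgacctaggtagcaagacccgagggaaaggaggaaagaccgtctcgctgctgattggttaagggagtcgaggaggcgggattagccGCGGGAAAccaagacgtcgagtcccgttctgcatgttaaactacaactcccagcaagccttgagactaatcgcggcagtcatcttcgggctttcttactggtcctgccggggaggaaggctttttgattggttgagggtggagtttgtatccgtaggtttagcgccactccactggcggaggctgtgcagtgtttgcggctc
The word began 15 bases after the start in Msh6, 46 bases before it in Xrcc6 and 152 bases before it in Chek2. Such a word was found in 7 of the 41 windows (17.1%; Brca2, Chek2, Fancg, Msh3, Msh6, Rad51c and Xrcc6), in 2.96% of the 11091 windows of genes tested and in 1.56% of all 32851 windows. It was in 5 of the 23 windows of members that fell (21.7%) and in 2 of the other 18 (11.1%). The windows of Ung, Parp1, Xrcc5 and Fancf, which also fell, hold no E2F site word. The CCAAT letters that NF-Y binds were found in 61.0% of the members' windows, 38.1% of the windows of genes tested and 37.4% of all windows, and the CHR word TTTGAA in 2.44%, 11.5% and 17.9%. None of these counts is a test, and a word is not a bound site.

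A wider list of 76 other repair genes, of which 74 were tested, gave 37 that fell, 1 that rose and 36 that did not pass the test. Of all 12277 genes, 25.1% fell and 28.8% rose. The median log2 change of the 74 was -0.53. In nucleotide excision repair, the single-stranded DNA binding subunits Rpa1 and Rpa2 fell by 1.69 and 1.52. In base excision repair the lowest adjusted p values were those of Apex1, the endonuclease at abasic sites, which fell by 1.76, and Fen1, the flap nuclease, which fell by 1.42. In mismatch repair Mlh3 fell by 1.74. Recql4, a helicase, fell by 2.07, Hus1, a subunit of the 9-1-1 clamp, by 1.37, and Eme1 and Slx4, which serve the resolution of branched DNA, by 0.93 each. The 1 that rose was Trp53bp1, by 0.59 (edgeR adjusted p = 0.037), whose product favours end joining over recombination.

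The knockdown was then compared with the control over the 5 stages, with each stage as a pair. No member was called (edgeR), beside 0% of all 12277 genes, among which 1425 had an unadjusted p under 0.05. DESeq2 called 336 genes and no member. Among the members 3 had an unadjusted p under 0.05: Fanca at a log2 change of -0.80 (normal 95% interval -1.29 to -0.31, edgeR adjusted p = 0.27), Xpc at -0.55 (-1.03 to -0.08, edgeR adjusted p = 0.417) and Ercc5 at 0.49 (0.07 to 0.92, edgeR adjusted p = 0.417). These intervals come from the standard error and are narrower than the edgeR test allows. The shSmyd5 library was below the shLuc library at all 5 stages for 4 members (8.70%; Fanca, Fancm, Xpc and Exo1), against 6.19% of all genes, and above it at all 5 for Ercc5 alone (2.17%), against 4.80%. Whether the knockdown effect differed between the 3 late and the 2 early stages was tested too, and no member passed (lowest edgeR adjusted p = 0.979, for Fancl), beside 0% of all genes, among which 644 had an unadjusted p under 0.05 and DESeq2 called 75.

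A stage alone has 1 library for each hairpin and no test. For each stage the log2 fold of shSmyd5 over shLuc was taken on RPKM + 0.1, with an exact binomial 95% interval that covers counting error only, and members with at least 3 RPKM in 1 or both libraries were counted at 1.5-fold. In ES cells 6 of 45 members were higher (13.3%) and 10 lower (22.2%), against 17.4% and 25.4% of all genes. At 24 h 9 of 38 were higher (23.7%) and 4 lower (10.5%), against 27.8% and 12.2%. At day 6 3 of 41 were higher (7.32%) and 25 were lower (61.0%), against 15.2% and 38.1%. At day 10 none of 44 was higher and 9 were lower (20.5%), against 10.0% and 16.5%, and at day 14 3 of 39 were higher (7.69%) and 2 lower (5.13%), against 11.1% in each direction. The members' share thus stood apart from that of all genes chiefly at day 6, where their median log2 fold was -0.78 and that of all 9461 genes -0.35. With the median log2 fold of genes at 3 RPKM or more in both libraries (-0.27) taken off, the day 6 count was 3 higher and 16 lower of 41 members, against 22.2% and 25.3% of all genes.

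**Figure D4:**
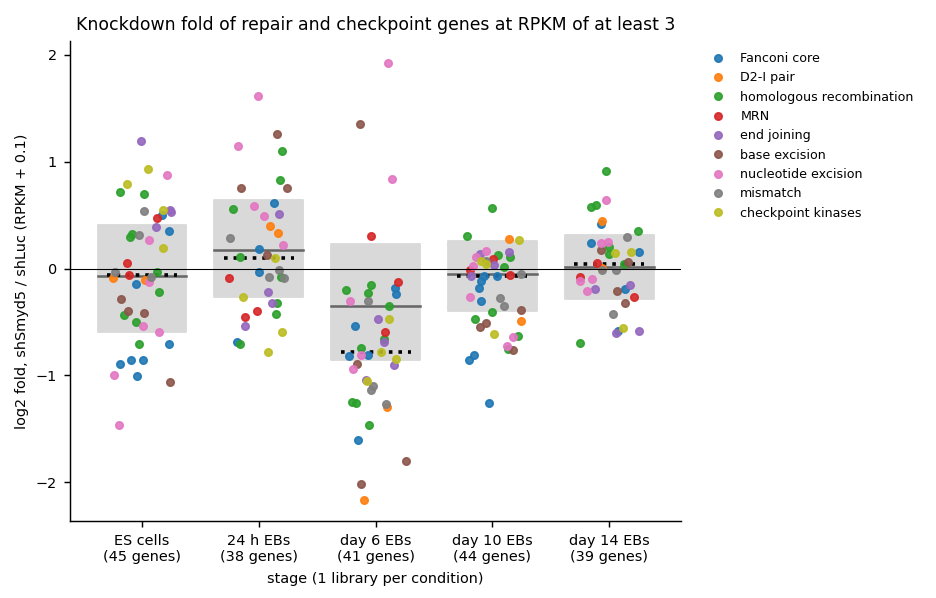
Log2 fold of shSmyd5 over shLuc at each stage for the members at 3 RPKM or more (points, coloured by pathway), with the middle 50% of all such genes as a grey box, their median as a grey line and the members' median as a dotted line. At day 6 the dotted line at -0.78 lies near the lower edge of the box at -0.86, and at the other stages it lies within 0.1 of the grey line.

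The day 6 differences reached 2-fold for 15 members, 13 lower and 2 higher in shSmyd5. The share of all genes at 2-fold is not given here. At 1.5-fold, 38.1% of all genes were lower and 15.2% higher at this stage. Fancd2 went from 4.69 to 0.971 RPKM (log2 fold -2.16, interval -2.46 to -2.09), Ung from 19.9 to 4.86 RPKM (-2.01), Parp1 from 69.5 to 19.8 RPKM (-1.80, interval -1.86 to -1.76) and Fanca from 3.35 to 1.04 RPKM (-1.60). In homologous recombination, Brca2 went from 10.0 to 3.57 RPKM (-1.47), Brca1 from 11.3 to 4.67 RPKM (-1.25) and Rad54l from 4.78 to 1.95 RPKM (-1.25). Both genes of the D2-I pair were among the 13, since Fanci went from 10.6 to 4.27 RPKM (-1.30). In mismatch repair, Pms2 (-1.27), Msh6 (-1.14) and Exo1 (-1.10) were 2-fold lower while Msh3, at 12.1 and 9.79 RPKM, was not. Chek2 (-1.05) and Xrcc6 (-1.04) complete the 13. Members below 3 RPKM in both libraries were not counted. Of those, Ercc2 went from 2.76 to 0.429 RPKM, Fancc from 1.83 to 0.312 RPKM and Prkdc from 2.63 to 0.888 RPKM. Ercc4 went from 1.41 to 0.63 RPKM, and Fancg from 1.496 to 1.54 RPKM. Of the 13, only Fanca was still 2-fold lower at day 10, at -1.26 after -1.60 at day 6. At day 10 Parp1 stood at 78.3 and 55.0 RPKM, Brca1 at 9.28 and 10.0 RPKM and Fanci at 12.7 and 15.4 RPKM.

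Xpa had the highest fold of any member at day 6, going from 10.5 to 40.4 RPKM (650 and 2485 reads, log2 fold 1.93, interval 1.81 to 2.07). In the other pairs Xpa stood at 2.25 and 4.22 RPKM in ES cells, on 12 reads in the shallow shLuc library, 12.7 and 17.9 RPKM at 24 h, 8.01 and 8.65 RPKM at day 10, and 16.7 and 14.4 RPKM at day 14. Ogg1 went from 2.39 to 6.25 RPKM at day 6 (1.35) and from 3.31 to 8.04 RPKM at 24 h (1.26), but from 6.17 to 4.19 RPKM at day 10. Ercc5, at 8.06 and 14.5 RPKM at day 6 (0.84), was the third member above 1.5-fold. Day 6 was also the stage with the lowest Smyd5 level, 0.492 RPKM in shSmyd5. There the 8 visceral endoderm markers summed to 110 RPKM in shLuc and 536 RPKM in shSmyd5, and the 6 ES cell markers to 752 and 335 RPKM. The 10 markers of dividing cells summed to 682 and 531 RPKM. Of these, Cdk1 (36.3 and 50.3 RPKM), Aurkb (29.8 and 42.2 RPKM) and Bub1 (82.8 and 84.2 RPKM) were higher in shSmyd5 and the others lower. The part of these shifts in the members' folds was not tested.

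In ES cells and at 24 h the folds followed the base composition of the transcript in opposite directions. Over the members at 3 RPKM or more, the rank correlation of the log2 fold with GC content was -0.75 in ES cells (45 genes) and 0.77 at 24 h (38 genes), where it was -0.68 and 0.58 over all genes, and it was -0.10 at day 6, -0.46 at day 10 and 0.36 at day 14. Each set of points shares its 2 libraries. Ercc2, of 59.1% GC, went from 24.3 to 8.78 RPKM in ES cells (-1.46) but from 1.06 to 3.46 RPKM at 24 h (1.62). Ung, of 57.2% GC, went from 82.9 to 39.7 RPKM (-1.06) and then from 17.9 to 30.4 RPKM (0.76). At the other end, Atr, of 41.5% GC, went from 2.80 to 5.43 RPKM in ES cells (0.93) and from 5.73 to 3.30 RPKM at 24 h (-0.78), and Chek1, of 39.4% GC, from 9.23 to 16.1 RPKM (0.80) and from 41.5 to 34.5 RPKM. The other members past 2-fold at these stages were Fancg (7.56 and 3.73 RPKM) and Xrcc4 (1.20, on 16 reads in shLuc) in ES cells and Ogg1 (1.26), Ercc1 (1.15) and Xrcc3 (1.10) at 24 h. Within shLuc alone, Ercc2 and Ung went from 24.3 to 1.06 RPKM and from 82.9 to 17.9 RPKM between ES cells and 24 h EBs. Atr and Chek1 went up there, from 2.80 to 5.73 RPKM and from 9.23 to 41.5 RPKM. The part of base composition in these changes of the control was not tested. Transcripts of a member could differ. For Ercc1, the transcript not used gave 0.104 at 24 h and -1.855 at day 6, where the one used gave -0.301. A less abundant Rad52 transcript gave 1.395 at 24 h and -0.959 at day 6, against 0.555 and -0.151 for the one used.

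**Figure D5:**
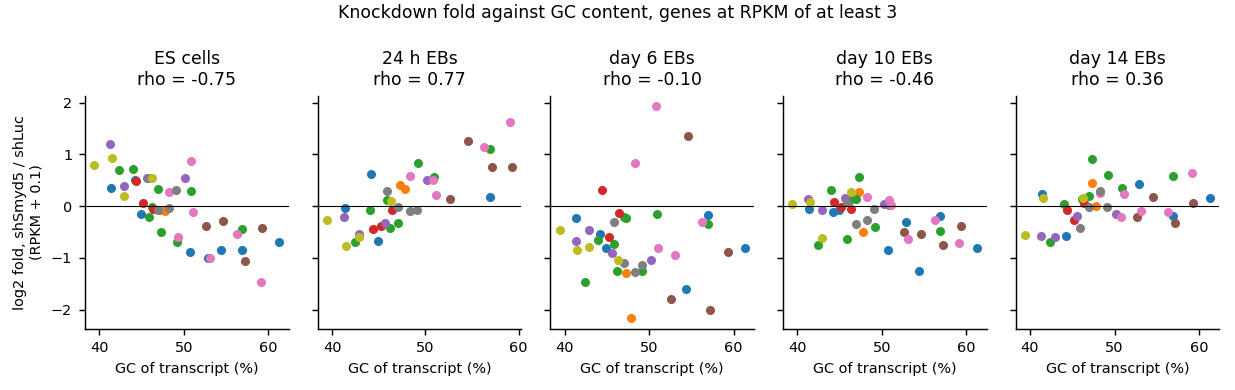
Log2 fold of shSmyd5 over shLuc (vertical) against the GC content of the transcript in percent (horizontal) for members at 3 RPKM or more, 1 panel per stage, points coloured by pathway, with the rank correlation above each panel. The cloud slopes down in ES cells (-0.75), up at 24 h (0.77) and shows little slope at day 6 (-0.10).

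With a smooth trend on GC content and transcript length taken out of each stage's folds, 0 members were 1.5-fold higher and 6 lower in ES cells, against 7.2% and 12.6% of all genes. At 24 h 6 were higher and 0 lower, against 20.9% and 8.56%, and day 6 gave 3 higher and 26 lower, against 12.1% and 41.0%. Of the named folds, Ung in ES cells moved from -1.06 to -0.45, Ercc2 in ES cells from -1.46 to -0.59 and Xrcc4 in ES cells from 1.20 to 0.40, whereas Fancd2 at day 6 moved from -2.16 to -2.10 and Xpa at day 6 from 1.93 to 1.45. Fanca was the one member at 2-fold at day 10, from 6.24 to 2.55 RPKM (-1.26, and -1.04 without the trend). At day 14 no member reached 2-fold. The 3 members above 1.5-fold there were Xrcc2 at 3.73 and 7.13 RPKM, Ercc2 at 2.38 and 3.77 RPKM and Rad54l at 3.34 and 5.12 RPKM, and the 2 below were Brca2 at 4.33 and 2.64 RPKM and Lig4 at 7.66 and 5.00 RPKM.

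For 18 members, exon bases are shared with another gene in the GENCODE annotation of the same build, and the cDNA protocol names no step that marks the strand, so reads in the shared part cannot be assigned. The longest are those of Rad54l with Lrrc41 (1184 bases), Ercc2 with Gm17574 (1025 bases) and with Klc3 (744 bases), Fanci with Polg (856 bases) and Fanca with Zfp276 (652 bases). Msh6 shares 25 bases with Fbxo11, and Ung, Parp1, Xrcc5, Exo1 and Fancm share none.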

How the data were processed

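PolyA RNA of 10 libraries was sequenced by the authors. Per the labels and the study's methods, CASAVA and Bowtie2 were used, with mm9 as the build, and versions and the annotation are not given in the sources used here. The deposited tables hold, for each of 29257 RefSeq transcripts, a read count and an RPKM value that the authors computed from it. Samples were grouped by the labels' hairpin and stage. Counts were tested with edgeR 4.0.16 (glmQLFit and glmQLFTest, TMM) in R 4.3.3, in genes with a mean of at least 1 RPKM, with stage as a block, and Benjamini-Hochberg adjustment over all 12277 genes. The steps were tested on simulated data. Stage folds used a pseudocount of 0.1 RPKM. GC content and mm9 coordinates came from GENCODE M1. Alternatives were DESeq2 1.42.0, limma 3.58.1 on log2 RPKM, other scalings and filters, a GC and length trend removed, and each stage left out.

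The members, the lists of other repair genes and markers, and the tests were chosen with earlier results of these data known. Named with values were members called in a fit (the 10 with the lowest adjusted p in a direction), members at least 2-fold different at a stage at 3 RPKM or more, the most and least abundant member of each pathway, and up to 2 other repair genes per pathway, some of which are not reported here. Other members are given to account for each pathway and were named after their values were seen. The low-expressed genes limit precision: the fewest reads for a member in a library were 12. The reads carry no molecular identifiers, so PCR copies count as separate reads and the intervals of the stage folds can be too narrow. Those intervals cover counting error of reads only and hold no spread between cultures. With 5 pairs an exact permutation test cannot go below p = 0.0625, so none was run.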

Additional observations from a re-analysis of the deposited data

How the results depend on the processing

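The number of members called late against early was 26 with edgeR and 18 to 28 under the other tools, scalings, filters, the GC and length trend and the stages left out (20 to 28 for the latter), 0 within shLuc libraries alone and 5 within shSmyd5 libraries alone, where 0 and 1194 of all 12277 genes were called. With both hairpins, edgeR called 6611 of all 12277 genes. The alternatives called from 5048 of 12277 genes, without day 14 EBs, to 7647 of 19819, with no filter. Of the 26, 10 were called in every one of the 13 alternatives that held both hairpins and 25 had the same sign in all. The exception was Chek1, at 0.32 without 24 h EBs (-1.68 to 0.32 over the stages left out). Called in the fewest of the 13 were Chek1, Ercc2, Mre11a and Rad52 (7 each) and Blm, Brca2 and Msh3 (8 each). Xpa, not called, changed to -0.48 without ES cells (-0.48 to 2.21 over the stages left out). Of the 20 members not called, 12 had another sign in 1 or more of 15 alternatives. The adjusted p over the alternatives ran from 1.31e-06 to 0.116 for Parp1, 6.23e-05 to 0.315 for Fanca, 0.00102 to 0.161 for Fancd2, 0.00168 to 0.947 for Ercc2, 0.00285 to 0.0654 for Ercc5, 0.000355 to 0.128 for Chek2 and 0.000414 to 0.388 for Chek1. No member was called for the knockdown over the 5 stages or for its late against early difference under any alternative, the fit with no replicate block (no stage term, 0 members) among them. The labels give each condition 1 replicate, so the stage is the only pairing.

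The stage counts at 1.5-fold depended on the minimum level, the GC trend and, at day 14, the pseudocount. At a minimum of 10 RPKM they were 8, 4, 17, 1 and 0 from ES cells to day 14, on fewer members, in place of 16, 13, 28, 9 and 5. Without the GC and length trend they were 6 in ES cells, 6 in 24 h EBs, 29 in day 6 EBs, 5 in day 10 EBs and 1 in day 14 EBs. Of all genes without the trend, 9.8% were higher and 11.6% lower at day 10, and 9.35% and 9.65% at day 14. At day 14 a pseudocount of 0.01 gave 8 and one of 1 gave 1. The shares of all genes at 10 RPKM and at these pseudocounts are not given here. Those counts therefore show only how the members' count moved with the setting. With the median of all genes taken off, day 6 gave 3 higher and 16 lower, against 22.2% and 25.3% of all genes.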
